A study of Mus musculus with 33 samples.

Results

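The potassium channel gene family was taken as the genes whose symbol begins with Kcn followed by further letters and, in nearly every case, a number, in RNA read counts from the nucleus accumbens, the ventral part of the mouse striatum. Of 97 such symbols, 81 had a count of 10 or more in at least 5 of 33 libraries and are the members described here, of 24053 genes in all. The least counted members, Kcnrg and Kcnq1, reached 10 counts in 5 libraries each, and the symbol closest below the limit, Kcnk7, reached it in 3. Of the 81 members, 80 could be tested, and Kcnq1 was too low for the test. Kcnq1ot1 and Kcnd3os are antisense RNAs that carry a channel gene's symbol and are counted apart from the channels where subfamilies are described.

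Potassium channels let potassium ions leave or, in the inward rectifiers, pass most easily into the cell, and so set the resting potential, the shape of the action potential and the rate of firing. Voltage-gated subunits (Kv) open on depolarisation and assemble with cytoplasmic beta subunits or with KChIP proteins, calcium-activated channels (SK and BK) open after calcium entry, inward rectifiers (Kir) hold the resting potential, and two-pore channels carry leak current. In the striatum the medium spiny neurons are held at a very negative resting potential by inward rectifiers, and their spiking is delayed by fast A-type currents. G protein-gated Kir3 channels are a classical target of the opioid receptors that morphine acts on.

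All mice were C57BL/6J. H2O mice were raised conventionally and drank water (normal microbiome), and Abx mice were raised conventionally and drank vancomycin (0.5 mg/mL), bacitracin (0.5 mg/mL), neomycin (2 mg/mL) and pimaricin (1.2 µg/mL) for 2 weeks beforehand and during the injections. These mice were 7 to 9 weeks old and came from a commercial supplier, and the drink was assigned to whole cages. GF mice were germ-free, of matched age, and bred in isolators at the institution. Each kind of mouse received saline (6 libraries per group) or morphine at 20 mg/kg per day for 7 days (5 libraries per group). The comparisons address what the absence or depletion of gut bacteria and repeated morphine do to transcripts of this reward region, and here to its potassium channel genes. The cage of each mouse and any sequencing batch are not in the labels, so germ-free status and the facility or batch the mice came through cannot be told apart. Each library is taken as a separate mouse from its title, and p-values measure only the spread between these libraries.

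The libraries held 4.87 to 15.3 M reads in genes, and 10 of the 11 GF libraries lay between 4.87 and 8.13 M, below each of the 22 conventional libraries (9.36 to 15.3 M). GF saline replicate 1, at 15.3 M, was the exception. Reads tallied to no gene made up 20.6% to 26.4% of tallied reads in the conventional libraries and 19.3% to 35.4% in the GF libraries. The share was 30.1% in GF saline replicate 6 and 35.4% in GF morphine replicate 5. Markers of neighbouring tissue varied widely between libraries, and some differed in the GF groups. The summed level of 8 cortical-type glutamatergic markers was 10.4 to 22.2 CPM (a gene's reads per 1 M reads counted to genes, with TMM-scaled library sizes) in GF morphine libraries against 12.9 to 1226 CPM in H2O morphine libraries. It was 16.5 to 377 CPM in GF saline libraries, 14.5 to 709 CPM in H2O saline libraries and 95.6 to 1533 CPM in Abx saline libraries. In Abx morphine libraries it was 162 to 1008 CPM (median 678 CPM, beside 85.7 CPM in H2O morphine libraries). In GF saline against H2O saline mice none of these 8 markers passed the test, while 5 of 11 tested hypothalamic, septal or pituitary markers were higher and none was lower. In this comparison 18% of all genes tested were higher and 15% lower. The summed level of the hypothalamic, septal or pituitary list was 40.9 to 228 CPM against 36.3 to 90.6 CPM, and its marker Prl was at 0 in every Abx saline library. Of 17 tested medium spiny neuron markers, which define the labelled tissue, 2 were lower, with a summed level of 4120 to 11614 CPM in GF saline and 8497 to 12211 CPM in H2O saline libraries. The part of these lists in the results below was not tested beyond the fit with both neighbouring-tissue lists as covariates.

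Promoter windows of 2 members are shown because these genes carried calls in more than 1 comparison and their start regions are in the RefSeq promoter table (GRCm38.p6), which holds 58 of the 81 members. Kcnip4 encodes a KChIP protein that binds A-type channels and was higher in GF mice in all 3 germ-free comparisons. It has 2 starts in that table, far apart, which a count per gene cannot separate. In GENCODE vM21 the gene extends further upstream than both, to chr5:49524907, and no window is shown there. Kcne1l encodes a small single-pass ancillary subunit and was lower in Abx mice given morphine. Each line gives the 250 bases before the annotated start, 5′ to 3′ on the gene's strand, with matches to 5 searched motifs in capitals.
Kcnip4 start 1 (chr5:49285660-49285909, minus strand): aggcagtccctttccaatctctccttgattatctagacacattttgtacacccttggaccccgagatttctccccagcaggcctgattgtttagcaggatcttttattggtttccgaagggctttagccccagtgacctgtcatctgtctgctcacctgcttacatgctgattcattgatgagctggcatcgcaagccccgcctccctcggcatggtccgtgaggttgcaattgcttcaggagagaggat
Kcnip4 start 2 (chr5:48599683-48599932, minus strand): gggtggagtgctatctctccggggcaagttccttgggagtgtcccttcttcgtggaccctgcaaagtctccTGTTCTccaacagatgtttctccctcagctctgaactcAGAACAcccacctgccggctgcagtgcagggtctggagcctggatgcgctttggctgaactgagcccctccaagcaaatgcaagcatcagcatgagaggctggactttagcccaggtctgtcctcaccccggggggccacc
Kcne1l (chrX:142306199-142306448, minus strand): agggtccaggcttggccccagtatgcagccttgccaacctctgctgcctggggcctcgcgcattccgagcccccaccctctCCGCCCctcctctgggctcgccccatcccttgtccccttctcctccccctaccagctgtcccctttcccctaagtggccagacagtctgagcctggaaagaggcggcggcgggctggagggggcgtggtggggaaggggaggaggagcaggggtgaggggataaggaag
The motifs searched on both strands were the GC box GGGCGG, the E-box CACGTG, the cAMP response motif TGACG, the TATA box TATAAA and the glucocorticoid response motif AGAACA. The Kcnip4 start 2 window held the glucocorticoid response motif on both strands, 179 and 141 bases before the start, and the start 1 window held none of the 5. This motif was in 16.1% of all 32851 promoter windows of the table and in 12.3% of the 81 windows of the members. The Kcne1l window had a GC content of 68% and held a GC box 169 bases before the start. GC boxes were in 45.7% of the members' windows and in 32.7% of all windows, and TATA boxes in 2.47% and 12.4%.

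Levels between genes were compared as CPM per kb of merged exon length, averaged over all 33 libraries. Kcnj4, an inward rectifier of the Kir2 subfamily, had the highest level (109 CPM per kb), followed by the A-type channel partner Kcnip2 (81.4), the beta subunit Kcnab2 (66.2) and the axonal channel Kcna1 (55.5). The calcium sensor Kcnip3 (45.6 CPM per kb), the astrocytic inward rectifier Kcnj10 (42.2), the leak channel Kcnk1 (37.2), Kcnab1 (33.6), the electrically silent modifier Kcnf1 (30.9), the EAG-related Kcnh3 (28.8), the A-type pore subunit Kcnd2 (26.0) and the leak channel Kcnk2 (25.7) complete the 12 highest levels.

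In other subfamilies the highest levels were those of the sodium-activated Kcnt1 (21.2 CPM per kb) in Slo2 and Slo3, Kcnq5 (21.0) in the M-current family Kv7 and Kcnc1 (19.9) in Kv3. They were lower for Kcnj11 (15.0 CPM per kb) in the ATP-sensitive Kir6 subfamily, Kcnj9 (14.6) in Kir3, Kcnn3 (5.53) in SK, Kcne1l (4.88) among MinK-related subunits and Kcnma1 (4.64) in BK. The least were Kcnd3os (0.612) and the regulator Kcnrg (0.347). The summed level of the 81 members had a median of 5629 CPM in H2O saline, 5533 CPM in Abx saline and 5336 CPM in GF saline libraries, and of 5629, 5643 and 4889 CPM in the H2O, Abx and GF morphine libraries. The ranges of the 3 saline groups overlapped (5097 to 5814, 4830 to 5999 and 4304 to 6061 CPM), and the GF morphine range (4323 to 5415 CPM) overlapped that of H2O morphine mice (5148 to 5864 CPM).

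**Figure D1:**
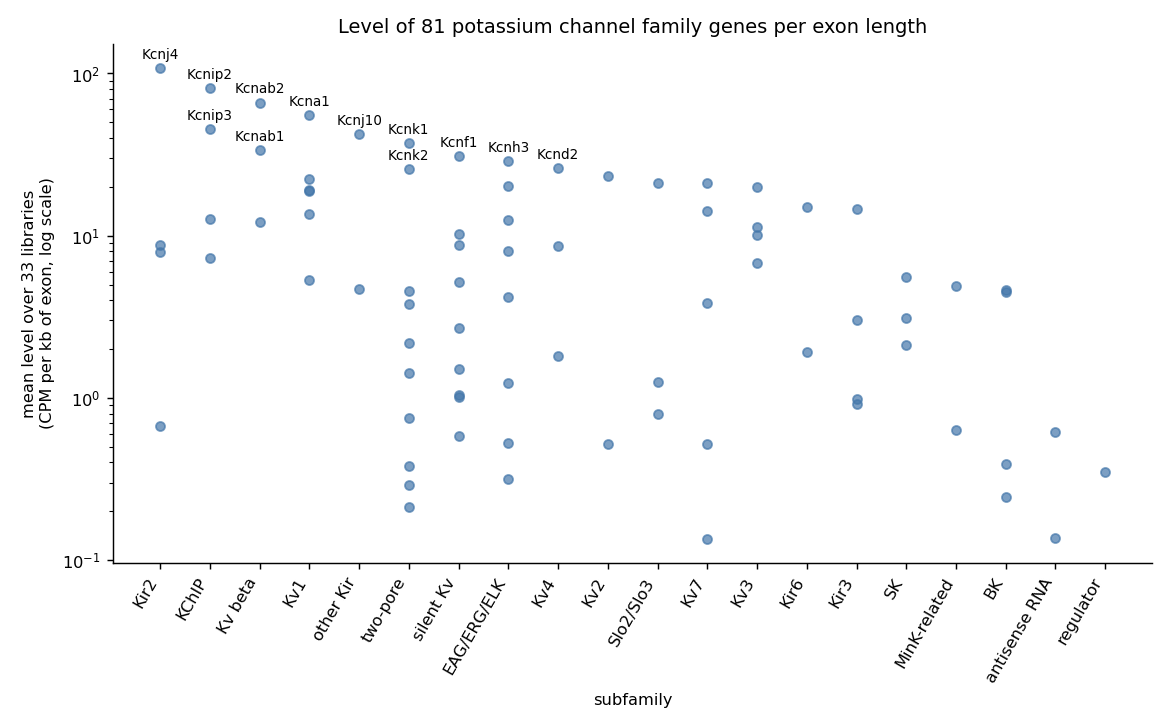
Mean level of each of the 81 members over 33 libraries, in CPM per kb of merged exon length on a log axis, by subfamily in the order of its highest gene, with the 12 highest levels named. Kcnj4 stands highest at 109 CPM per kb.

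In saline mice without any microbiome, 22 of 80 tested members differed from H2O mice (edgeR quasi-likelihood test, Benjamini-Hochberg adjusted p under 0.05 over 14602 genes), 13 higher (the antisense RNA Kcnq1ot1 among them) and 9 lower in GF mice. That is 27.5% of the members, where 32.9% of all genes tested passed (18% higher and 15% lower), so the family changed no more often than genes in general. The calcium-activated SK channels Kcnn2 and Kcnn3 and the A-type pore subunit Kcnd3 were higher, while both ATP-sensitive Kir6 genes and a pair of the Kir2 genes were lower. In bulk tissue, fewer cells of a type and less RNA per cell cannot be told apart, here and in every comparison below. With upper-quartile scaling the split turned to 10 higher and 14 lower, so the balance of directions depends on the scaling. The median log2 fold change of the members was -0.0003, beside 0.009 over all genes.

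Among calcium-activated channels, Kcnn2, the SK channel subunit that shapes the afterhyperpolarisation, was at 19.1, 22.8 and 24.1 CPM (lowest, median and highest) in GF saline mice and at 8.48, 13.2 and 14.9 CPM in H2O saline mice. Every GF library lay above every H2O library. The log2 fold change of Kcnn2 was 0.79 (SE 0.12, edgeR adjusted p 2.29e-05). Kcnn3, another SK subunit, was at 47.7, 72.4 and 81.7 CPM against 45.5, 49.8 and 55.2 CPM, with 5 of 6 GF libraries above the H2O range and a log2 fold change of 0.46 (SE 0.14, edgeR adjusted p 0.0101). The remaining SK gene, Kcnn1, had a log2 fold change of -0.38 that did not pass in edgeR (adjusted p 0.0540) and passed in DESeq2 (adjusted p 0.0492), and none of the 4 BK genes passed. The sodium-activated Kcnt2 was at 8.37, 10.3 and 11.5 CPM in GF and 5.09, 7.05 and 7.64 CPM in H2O libraries, again without overlap (log2 fold change 0.56, SE 0.19, edgeR adjusted p 0.0258).

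Of the Kv pore subunits, Kcnd3, which carries A-type current, was at 62.0, 108 and 132 CPM in GF against 50.8, 65.9 and 81.7 CPM in H2O saline mice. GF saline replicate 1 was the GF library within the H2O range. The log2 fold change of Kcnd3 was 0.64 (SE 0.13, edgeR adjusted p 0.0005). Kcna3 (0.53), the fast-spiking channel Kcnc2 (0.75) and the silent modifier Kcns3 (0.65) were also higher, with 3, 4 and 4 of 6 GF libraries past the H2O range, and the EAG-related Kcnh3 was lower (-0.34). None of the 4 tested Kv7 genes passed. Kcnh8 was not past the threshold (log2 fold change 0.74, adjusted p 0.0510 in edgeR), although its GF range (1.28 to 2.79 CPM) lay above its H2O range (0.742 to 1.26 CPM). With Kcnn2 and Kcnt2 it made up the 3 members without overlap between the groups, where 9.37% of all genes had none.

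The partners of the A-type channel moved in different directions. The KChIP gene Kcnip4 was at 37.8, 55.7 and 62.4 CPM in GF and 39.0, 40.6 and 44.9 CPM in H2O saline mice (log2 fold change 0.35, SE 0.13, edgeR adjusted p 0.0385), with 4 of 6 GF libraries above the H2O range and GF saline replicate 1 below it. Its relatives Kcnip3 (-0.46) and Kcnip2 (-0.41) were lower, as was the beta subunit Kcnab2 (-0.35). Kcnip3 was at 105, 128 and 173 CPM in GF and 166, 185 and 191 CPM in H2O mice, with 5 of 6 GF libraries below the H2O range.

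Among inward rectifiers, Kcnj11, the pore of the neuronal ATP-sensitive channel, was at 37.4, 43.1 and 59.9 CPM in GF and 58.5, 63.7 and 66.8 CPM in H2O saline mice. GF saline replicate 1 was again the GF library inside the H2O range. The log2 fold change of Kcnj11 was -0.43 (SE 0.08, edgeR adjusted p 0.0002). Kcnj8, the Kir6 gene of blood vessels, was at 3.39, 4.14 and 6.31 CPM against 5.34, 5.96 and 6.94 CPM (log2 fold change -0.44, edgeR adjusted p 0.0292), and 5 of 6 GF libraries lay below the H2O range. Beside it, 2 of 6 mural cell markers and 5 of 7 endothelial markers were lower and none higher, where 15% of all genes were lower. Summed mural levels were 133 to 203 CPM in GF and 237 to 254 CPM in H2O libraries. The part of these markers in the Kcnj8 result was not tested.

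The Kir2 gene Kcnj4 was at 90.1, 181 and 270 CPM in GF and 252, 281 and 306 CPM in H2O saline mice (log2 fold change -0.61, SE 0.15, edgeR adjusted p 0.0033), with 5 of 6 GF libraries below the H2O range. Its relative Kcnj12 fell by 0.36 on the log2 scale. The glial rectifier Kcnj16 (0.60) and the Kir3 gene Kcnj5 (1.01) were higher. With both neighbouring-tissue lists as covariates their log2 fold changes turned to -0.00233 and -0.37 and no longer passed. Kcnj4 and Kcnj8 lost their calls in that fit too, while Kcnj12 and Kcnj11 kept theirs. The Kir3 gene of the highest level, Kcnj9, had a log2 fold change of -0.01 that did not pass.

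In the two-pore subfamily 2 genes were higher and 1 was lower. Kcnk6 was at 6.21, 6.99 and 7.56 CPM in GF and 4.42, 5.46 and 6.55 CPM in H2O saline mice (log2 fold change 0.38, SE 0.12, edgeR adjusted p 0.0133), with 5 of 6 GF libraries above the H2O range. The acid-sensitive leak channel Kcnk9 had a log2 fold change of 0.59 and the poorly conducting Kcnk12 of -0.55. The antisense RNA Kcnq1ot1 was at 4.19, 13.0 and 36.5 CPM in GF against 4.88, 5.91 and 9.57 CPM in H2O mice (log2 fold change 1.25, SE 0.45, edgeR adjusted p 0.0301). Here 5 of 6 GF libraries lay above the H2O range, spread widely, and GF saline replicate 1 was below it.

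**Figure D2:**
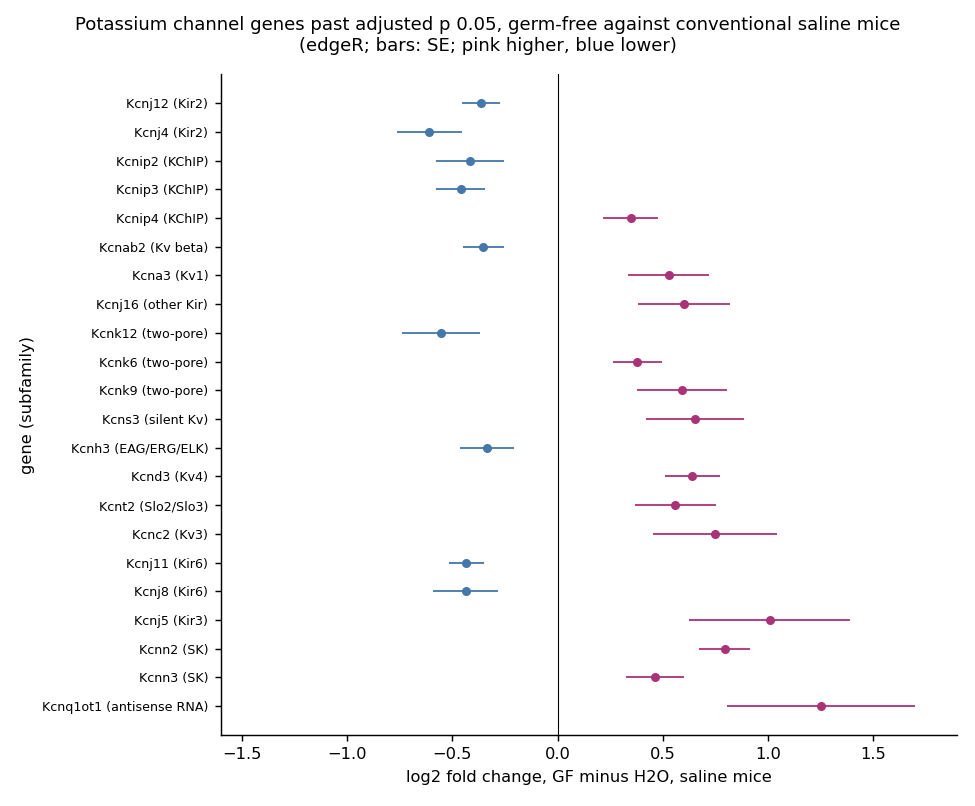
Log2 fold change of GF minus H2O saline mice (horizontal axis, bars SE) for the 22 of 80 tested members past an edgeR adjusted p of 0.05, ordered by subfamily. The 13 higher (pink) and 9 lower (blue) genes include Kcnn2 and Kcnn3 above 0 and Kcnj11, Kcnj8 and Kcnj4 below it.

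The count depended on single libraries. With each library left out in turn it ran from 10 to 28, so it rose as well as fell. It was 10 without GF saline replicate 6, 13 without H2O saline replicate 4 or 5, and 14 without H2O saline replicate 3. The share of all genes called without a library is not given, here or below. Whether these shifts were particular to the family was therefore not tested. With both neighbouring-tissue lists in the fit, 16 members passed, 7 of them among the 22, beside 24.1% of all genes in the same fit. The 7 were Kcnn2, Kcnn3, Kcnd3, Kcna3, Kcnt2, Kcnj11 and Kcnj12, and the rest of the 22 lost their calls there.

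Gene length and GC content were checked because the GF difference followed both across all genes. Across the 80 members, the log2 fold change of GF against H2O saline mice had a Spearman rho of 0.37 with exon length and of -0.52 with GC content, and over 14492 genes with both values rho was 0.32 and -0.49. Genes are not independent replicates, so these are descriptions. Of the 40 longer members (above the median of 4572 bases), 8 were higher and 2 lower. Of the 40 shorter members, 5 were higher and 7 lower. After the trend over length and GC content was taken out of each library, rho was 0.10 and -0.11 and 8 members passed, 5 higher and 3 lower, beside 19.3% of all genes.

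The 8 members after this correction were Kcnn2 (log2 fold change 0.84), Kcna3 (0.76), Kcns3 (0.64), Kcnd3 (0.55), Kcnk6 (0.42), Kcnj11 (-0.29), Kcnip3 (-0.35) and the BK beta subunit Kcnmb4 (-0.48). Of these, Kcnmb4 was not among the 22 before correction (log2 fold change -0.38). The Kir2 genes Kcnj4 and Kcnj12, both short, the SK gene Kcnn3 and the long Kcnq1ot1 no longer passed, so which inward rectifier genes were called depended on this step, and Kcnj11 remained.

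**Figure D3:**
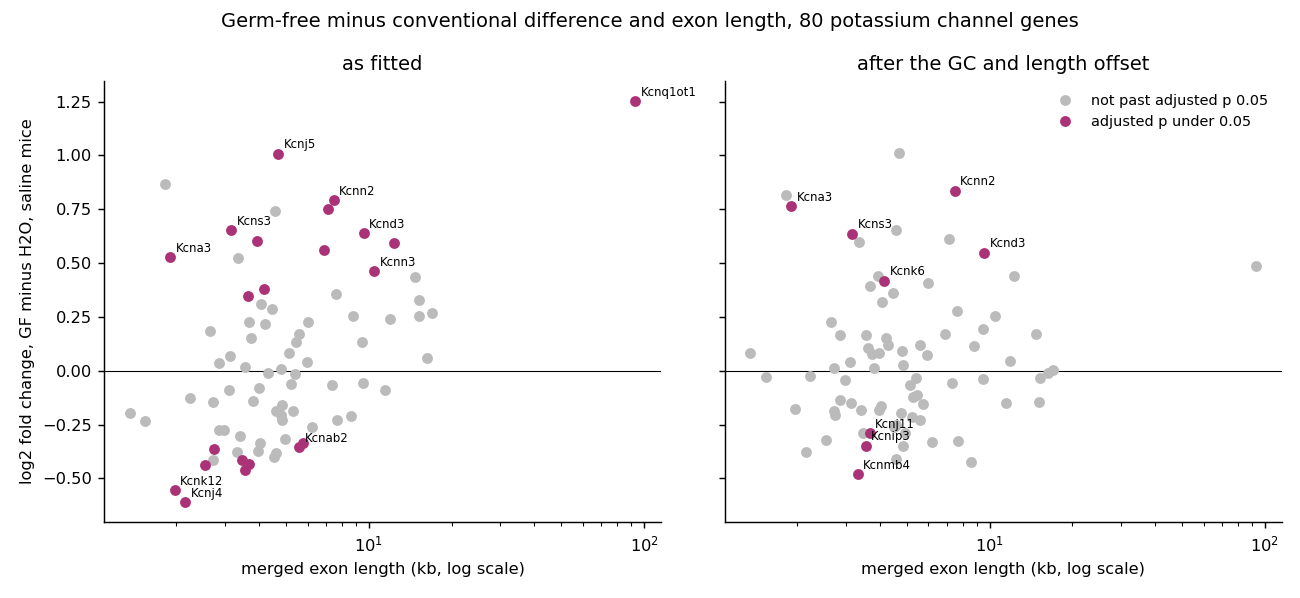
Log2 fold change of GF minus H2O saline mice against merged exon length (kb, log axis) for 80 members, as fitted (left, some called genes named) and after the trend over GC content and length was removed (right, all called genes named). Called genes (pink) number 22 on the left and 8 on the right, and Kcnn2, Kcnd3 and Kcnj11 are among the 8.

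Against Abx saline mice, 18 of 80 members differed in GF saline mice, 8 higher and 10 lower, beside 27.3% of all genes (14.4% higher and 12.9% lower). Since the same GF saline libraries enter both comparisons, the values are given side by side and are not independent of those above. Kcnn2 was at 9.22, 12.1 and 17.1 CPM in Abx saline mice, below every GF library (log2 fold change 0.84, SE 0.12, edgeR adjusted p 2.25e-05), and was the only member without overlap, where 5.49% of all genes had none. Kcnd3 (0.53), Kcnn3 (0.39), Kcnip4 (0.37), Kcnk6 (0.34) and Kcnj16 (0.62) were again higher, and Kcnj4 (-0.52), Kcnk12 (-0.54), Kcnip3 (-0.43), Kcnj11 (-0.38), Kcnab2 (-0.35) and Kcnh3 (-0.35) were again lower. In all, 12 members passed in both comparisons.

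The genes that passed against Abx mice alone were the silent modifiers Kcng2 and Kcng1 (-0.56), the KChIP gene Kcnip1, the BK beta subunit Kcnmb4 (-0.49), the Kv2 gene Kcnb2 (0.39) and Kcnu1 (0.58), known as the potassium channel of sperm. Kcng2 was at 1.27, 2.79 and 4.19 CPM in GF and 2.84, 5.57 and 11.7 CPM in Abx saline libraries (log2 fold change -1.07, SE 0.27, edgeR adjusted p 0.0042), with 4 of 6 GF libraries below the Abx range. Kcnip1 was at 27.4, 34.9 and 45.1 CPM against 36.4, 48.8 and 64.2 CPM (log2 fold change -0.50, SE 0.12, edgeR adjusted p 0.0037), and the groups overlapped in 3 GF libraries. Whether these genes differed more from Abx than from H2O mice is the contrast of Abx with H2O saline mice, in which no member passed. In this comparison 7 of 11 hypothalamic, septal or pituitary markers were higher and 1 lower, and 2 of 8 cortical-type markers were lower, and with both lists in the fit 12 members passed, 4 of them among the 18, beside 19.1% of all genes. With each library left out in turn the count ran from 10 to 21, and it was 10 without GF saline replicate 6. The count was 8 with the length and GC correction (15.1% of all genes), and 11 when only these 2 groups were fitted (16.4% of all genes). Upper-quartile scaling gave 5 higher and 11 lower.

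A second set of germ-free and conventional mice, those given morphine, shares no library with the saline mice. There 6 of 80 members differed between GF and H2O mice, 3 higher and 3 lower, or 7.5% beside 5.78% of all genes (3.3% higher and 2.48% lower). Kcnn2 was at 18.2, 20.8, 21.3, 21.9 and 23.8 CPM in the 5 GF morphine mice and at 11.2, 11.3, 11.7, 11.9 and 15.4 CPM in the 5 H2O morphine mice. The groups did not overlap, and the log2 fold change was 0.78 (SE 0.13, edgeR adjusted p 0.0008). Kcnj11 was at 39.0, 40.3, 43.3, 44.4 and 49.2 CPM in GF and at 52.2, 57.3, 58.3, 58.6 and 60.7 CPM in H2O morphine mice. Every GF library was below every H2O library (log2 fold change -0.41, SE 0.09, edgeR adjusted p 0.0086).

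Kcnk6 was at 5.72, 6.09, 6.41, 6.49 and 8.08 CPM in GF and 4.39, 4.41, 4.90, 5.16 and 5.55 CPM in H2O morphine mice, without overlap (log2 fold change 0.42, SE 0.13, edgeR adjusted p 0.0478). Kcnip4 was at 37.9, 52.0, 53.7, 68.2 and 82.3 CPM in GF and 36.1, 36.5, 41.3, 42.0 and 47.5 CPM in H2O morphine mice (log2 fold change 0.53, SE 0.14, edgeR adjusted p 0.0240). The lowest GF library lay inside the H2O range and the other 4 above it.

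The ERG channel gene Kcnh2 was at 49.2, 50.6, 57.1, 57.1 and 57.3 CPM in GF and at 58.0, 67.1, 69.7, 71.7 and 73.8 CPM in H2O morphine mice, without overlap (log2 fold change -0.33, SE 0.09, edgeR adjusted p 0.0284). The silent modifier Kcng1 was at 9.05, 10.3, 12.6, 15.4 and 21.7 CPM in GF and 18.2, 21.9, 26.3, 28.5 and 33.7 CPM in H2O morphine mice (log2 fold change -0.89, SE 0.23, edgeR adjusted p 0.0185), with 1 GF library inside the H2O range. In 5 members the groups did not overlap, where 5.71% of all genes had no overlap: Kcnn2, Kcnj11, Kcnk6, Kcnh2 and the antisense RNA Kcnq1ot1, which did not pass (log2 fold change 1.08, adjusted p 0.151 in edgeR).

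The median log2 fold change of the 80 members was -0.16 in this comparison, beside -0.004 over all genes. A positive value was found in 19 of the 80 members, where 49.1% of all genes had one. Of the cortical-type markers, whose levels are given above, 1 of 8 was lower, and 3 of 11 hypothalamic, septal or pituitary markers were higher. With both lists as covariates 2 members passed, 1 higher and 1 lower, beside 2.14% of all genes, and Kcnn2 was still among them, while Kcnj11, Kcnk6, Kcnip4 and Kcng1 were not. With each library left out in turn the count ran from 2 to 7. It was 2 without H2O morphine replicate 5 or GF morphine replicate 3, and 3 without H2O morphine replicate 3 or GF morphine replicate 5. It was also 3 when only these 2 groups were fitted, beside 2.4% of all genes.

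Kcnn2, Kcnip4 and Kcnk6 were higher and Kcnj11 was lower in all 3 germ-free comparisons, of which both saline comparisons share the GF saline libraries. The saline and morphine sets share no library, but both set GF mice bred in isolators against H2O mice from a supplier. These 4 genes are 18.2% of the 22 members called against H2O in saline mice and 66.7% of the 6 called in morphine mice. For all genes the 597 called in the same direction in both sets, 4.09% of those tested, are 12.4% and 70.7% of the respective lists. The direction matched in 49 of 80 members (61.25%) and in 70.0% of all genes. Pearson's r of the log2 fold changes was 0.59 across the members and 0.58 across all genes. These values are descriptions across genes that share libraries. The sharing of calls between sets and r were thus close to those of genes in general, while the direction matched less often.

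**Figure D4:**
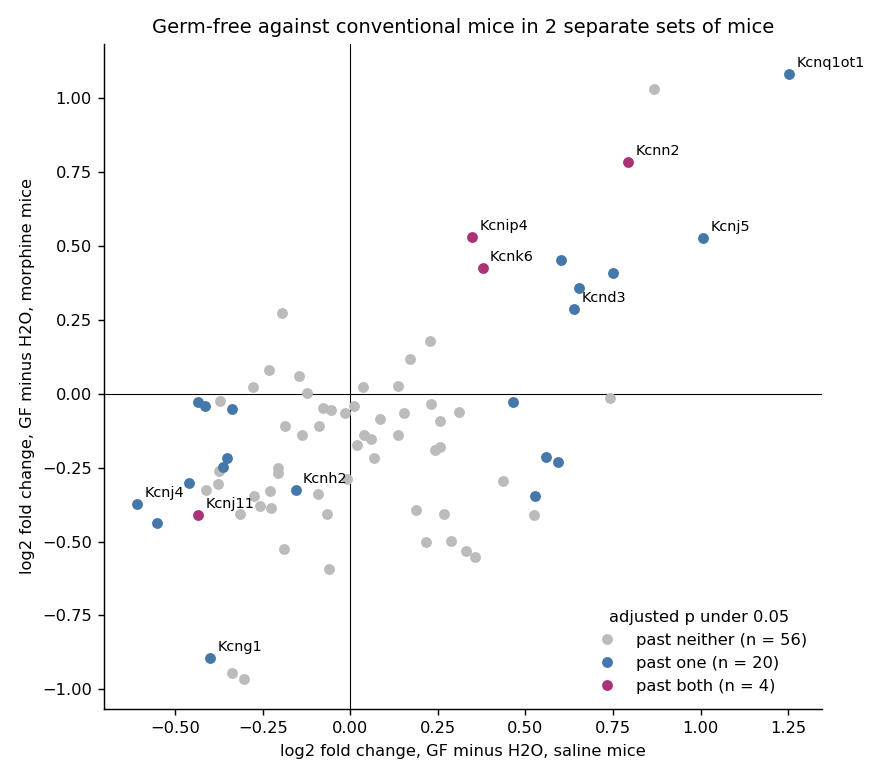
Log2 fold change of GF minus H2O mice in saline (horizontal) and in morphine mice (vertical), which share no library, for 80 members. The 4 genes past the threshold in both (pink) are Kcnn2, Kcnip4 and Kcnk6 in the upper right and Kcnj11 in the lower left.

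The 4 genes did not stand equally firm. Kcnn2 passed in all 3 comparisons under every one of the 8 alternative settings and without any 1 library, with log2 fold changes from 0.71 to 0.95. Kcnj11 did so against H2O saline mice (from -0.54 to -0.29). Against H2O morphine and Abx saline mice it lost the call with the neighbouring-tissue covariates, and in the latter also with the length and GC correction (adjusted p up to 0.0738 and 0.0783). Kcnip4 lost its call in saline mice against H2O under 5 of 8 settings and without 9 of 12 libraries in turn (log2 fold change from 0.11 to 0.43, adjusted p up to 0.496). Kcnk6 kept its call against H2O saline mice without each library, and lost it with the neighbouring-tissue covariates (adjusted p 0.0692). In morphine mice its call held under 4 of 8 settings and without 2 of 10 libraries in turn (adjusted p up to 0.171).

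Kcnn2 and Kcnip4 each overlap a noncoding gene on the opposite strand, by 284 and 168 exonic bases, Kcnd3 overlaps Kcnd3os by 165 bases and Kcnt2 another noncoding gene by 102 bases. The strand setting of the counting is not given in the sources used here, so reads in those stretches cannot be assigned to a strand. Kcnd3os itself had a log2 fold change of -0.20 in GF against H2O saline mice and did not pass. In morphine mice Kcnd3 was at 87.4, 95.2, 108, 110 and 115 CPM in GF and 72.1, 79.8, 80.01, 91.4 and 100 CPM in H2O libraries, and the log2 fold change of 0.29 did not pass (adjusted p 0.214 in edgeR).

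**Figure D5:**
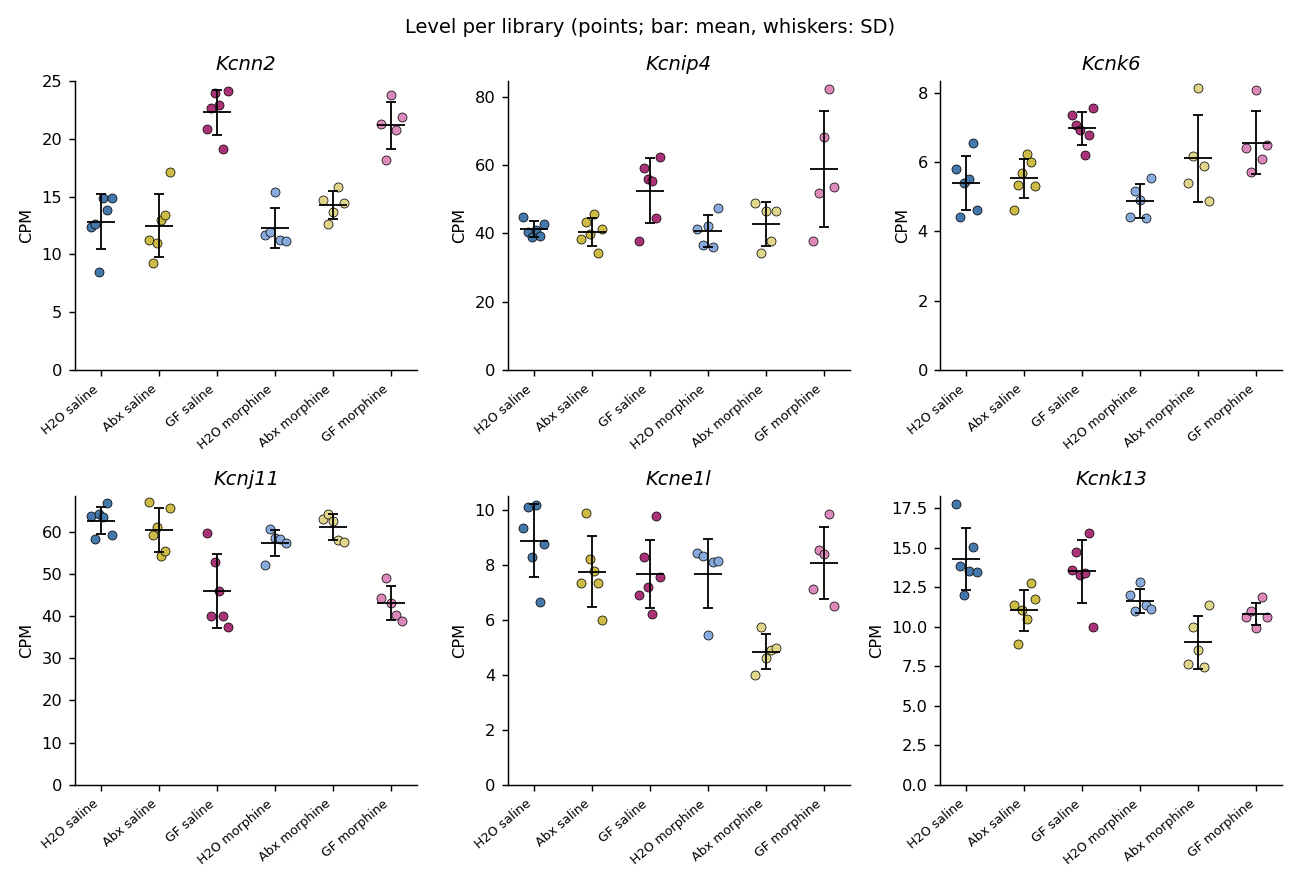
Level in CPM per library (points), with mean and SD, for 6 members in the 6 groups. Kcnn2 lies between 18.2 and 24.1 CPM in the 11 GF libraries and below that in all others, Kcnj11 is lower in GF groups, and Kcne1l and Kcnk13 have their lowest means in Abx morphine mice.

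Depleting the microbiome with antibiotics in saline mice changed no potassium channel gene past the threshold. The edgeR test called 0 of 80 members, beside 0.116% of all genes, with 9 members at an unadjusted p under 0.05 (12% of all genes). DESeq2 also called 0, beside 0.713% of the 14035 genes to which it gave an adjusted p. The smallest p was that of Kcnk13, a two-pore channel known from microglia, at 8.89, 11.2 and 12.8 CPM in Abx and 11.98, 13.7 and 17.8 CPM in H2O saline mice (log2 fold change -0.37, SE 0.11, edgeR adjusted p 0.143). The next were Kcng2 (log2 fold change 0.79), Kcnq1ot1 (1.11), Kcnrg (0.82) and Kcnj12 (-0.21), none of which passed. No member separated the groups without overlap, where 1.62% of all genes did.

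In mice given morphine, 4 members differed between Abx and H2O mice, 3 lower and 1 higher in Abx mice, or 5% beside 10.4% of all genes (4.54% higher and 5.86% lower). Kcne1l was at 3.97, 4.59, 4.89, 4.96 and 5.72 CPM in Abx and 5.43, 8.10, 8.12, 8.31 and 8.41 CPM in H2O morphine mice. The lowest H2O library lay inside the Abx range. The log2 fold change of Kcne1l was -0.66 (SE 0.14, edgeR adjusted p 0.0030), and the call was kept under all 8 settings and without each library.

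Kcnj10, the main inward rectifier of astrocytes, was at 174, 183, 199, 206 and 220 CPM in Abx and 238, 240, 246, 281 and 301 CPM in H2O morphine mice, without overlap (log2 fold change -0.41, SE 0.12, edgeR adjusted p 0.0252). Beside it, 3 of 8 astrocyte markers were lower and none higher, while their summed level overlapped (3992 to 4421 CPM in Abx and 4187 to 4638 CPM in H2O morphine mice). Kcnk13 was at 7.45, 7.66, 8.55, 9.97 and 11.4 CPM in Abx and 10.9998, 11.1, 11.3, 11.98 and 12.8 CPM in H2O morphine mice (log2 fold change -0.37, SE 0.12, edgeR adjusted p 0.0380). Here 6 of 8 microglial markers were lower and none higher, with summed levels of 398 to 462 CPM in Abx and 502 to 564 CPM in H2O morphine mice. Of the oligodendrocyte precursor markers, 3 of 5 were also lower and none higher, with a median log2 fold change of -0.42 (-0.12 for the astrocyte and -0.33 for the microglial markers) and summed levels of 251 to 302 CPM in Abx and 342 to 384 CPM in H2O morphine mice. Mural markers (2 of 6) and endothelial markers (2 of 7) were lower too, and none was higher. The part of these markers in the Kcnj10 and Kcnk13 results was not tested. Kcnj10 kept its call under 7 of 8 settings and without 5 of 10 libraries in turn, and Kcnk13 under 4 of 8 and without 3 of 10.

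The regulator Kcnrg, which is known to hinder assembly of Kv1 channels, was the higher gene, at 0.554, 0.618, 0.721, 1.01 and 1.01 CPM in Abx and 0.150, 0.151, 0.414, 0.420 and 0.654 CPM in H2O morphine mice (log2 fold change 1.10, SE 0.35, edgeR adjusted p 0.0379). These levels rest on 2 to 14 counts per library, and with DESeq2 or without the filter on low counts it did not pass. Next in order of p came Kcng4 (log2 fold change -1.16, adjusted p 0.0571 in edgeR and 0.0377 in DESeq2) and Kcna6, at 79.6, 86.3, 89.4, 93.3 and 94.9 CPM in Abx and 101, 110, 120, 126 and 157 CPM in H2O morphine mice (log2 fold change -0.47, adjusted p 0.0588 in edgeR and 0.0462 in DESeq2). Kcna6, Kcnj10 and Kcna3 (log2 fold change -0.49, not past the threshold) were the 3 members without overlap, where 13.2% of all genes had none. The count of 4 was 1 without H2O morphine replicate 2 or 6 or Abx morphine replicate 1, and 2 without Abx morphine replicate 3 or 4. With each library left out in turn the count ran from 1 to 5. It was 2 without the filter (6.55% of all genes) or with a replicate block (8.95%), 7 when only these 2 groups were fitted (16.7%) and 8 with the neighbouring-tissue covariates (12.8%).

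Morphine against saline in Abx mice changed 1 member, which was lower, beside 5.37% of all genes (2.12% higher and 3.25% lower). Kcne1l was at 5.99, 7.55 and 9.88 CPM in Abx saline mice and at the Abx morphine values given above, without overlap (log2 fold change -0.68, SE 0.14, edgeR adjusted p 0.0042). It was the only member without overlap, where 6.41% of all genes had none. This contrast and the last share the Abx morphine libraries, so the Kcne1l calls are not independent of each other. Its level in H2O saline mice was 6.64, 9.04 and 10.2 CPM, and in GF morphine mice 6.49, 7.10, 8.37, 8.51 and 9.83 CPM. The test of whether morphine acted differently on Kcne1l in Abx than in H2O mice gave a log2 difference of -0.46 (SE 0.19, edgeR adjusted p 0.525), which did not pass. The members next in order of p, Kcnk9 (0.56), Kcnk13 (-0.29), Kcna6 (-0.32) and Kcna1 (0.26), did not pass. Without Abx saline replicate 5 or 6 the count was 2.

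In H2O mice, morphine changed 0 of 80 members by edgeR, which called 0% of all genes, with 13 members at an unadjusted p under 0.05 (15.2% of all genes). DESeq2 called 2, beside 2.69% of the 12337 genes to which it gave an adjusted p. They were Kcna3 (log2 fold change 0.77, DESeq2 adjusted p 0.0167) and Kcnk9 (0.77, DESeq2 adjusted p 0.0289). A fit of these 2 groups alone called 5, beside 6.99% of all genes in that fit. The 5 were Kcna3, Kcnk9, Kcng3, Kcnn3 and Kcnh3. Of these, Kcnn3 and Kcnh3 were not among the 5 smallest p of the main fit and were named here after their values were seen. Kcna3 was at 11.3, 13.4, 13.9, 14.3 and 14.4 CPM after morphine and 5.92, 7.17 and 11.6 CPM after saline (log2 fold change 0.78, SE 0.19, edgeR adjusted p 0.0827). All but 1 of the morphine libraries lay above the saline range. Kcnk9 was at 7.87, 9.11, 11.05, 12.1 and 12.2 CPM after morphine and 4.42, 6.16 and 7.88 CPM after saline (log2 fold change 0.77, SE 0.21, edgeR adjusted p 0.0949). The next members were Kcnk1 (-0.23), Kcnt2 (0.53) and Kcng3 (0.79), not past the threshold. The groups did not overlap in 3 members, Kcnh3, Kcnh4 and Kcnj12, all lower after morphine and none past the threshold, where 5.78% of all genes did not overlap. Across the members the log2 fold change had a rho of 0.37 with length and -0.34 with GC content (0.39 and -0.30 over all genes).

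In GF mice, morphine changed 0 of 80 members by edgeR and by DESeq2, beside 0.00685% of all genes with each, and 2 members were at an unadjusted p under 0.05 (6.64% of all genes). The smallest p was that of Kcnk13 (log2 fold change -0.32, SE 0.12, edgeR adjusted p 0.672), at 9.93, 10.6, 10.6, 11.008 and 11.9 CPM after morphine and 10.001, 13.5 and 15.9 CPM after saline, and then those of Kcng1 (-0.48), Kcna2 (-0.23), Kcnq3 (-0.39) and Kcnv1 (-0.39). Kcnk13 had a negative value after morphine in all 3 kinds of mice (-0.29 in H2O and in Abx mice), and none of the 3 passed.

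The difference of the morphine response between Abx and H2O mice passed in 0 members by edgeR, beside 0.11% of all genes. DESeq2 also called 0, beside 0.477% of the 14035 genes to which it gave an adjusted p. In edgeR 4 members were at an unadjusted p under 0.05 (7.92% of all genes). The smallest p values were those of Kcnh8 (log2 difference -0.999, edgeR adjusted p 0.516), Kcne1l, Kcna3 (-0.58), Kcns1 (0.50) and Kcnq1ot1 (-1.20). Between GF and H2O mice the difference also passed in 0 members by edgeR, beside 0% of all genes. DESeq2 called 0 as well, beside 2.39% of the 9789 genes to which it gave an adjusted p. In edgeR 8 members were at an unadjusted p under 0.05 (15.9% of all genes). Here Kcna3 came first, with a log2 difference of -0.87 (SE 0.28, edgeR adjusted p 0.145), before Kcnt2 (-0.77), Kcnk9 (-0.82), Kcna2 (-0.43) and the BK pore subunit Kcnma1 (-0.67). These differences had a rho of -0.44 with exon length across the members, as across all genes. None of the 4 Kir3 genes, the channels coupled to opioid receptors, passed for morphine against saline in H2O, Abx or GF mice. In these comparisons 0%, 5.37% and 0.00685% of all genes passed in edgeR. With so few calls among all genes, the absence of a Kir3 call does not show that these genes were unchanged.

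Partner genes of the channels were counted as a list of 40, of which 39 were tested. In GF against H2O saline mice 5 were higher and 6 lower, or 11 of 39 where 32.9% of all genes passed, so the partners as a list changed no more often than genes in general. The lower ones were Abcc8 (log2 fold change -0.36), the sulfonylurea receptor that forms the ATP-sensitive channel with Kcnj11, the scaffold Dlg4 (-0.29), Calm3 (-0.15), the pacemaker channel Hcn2 (-0.21), Tmem38a (-0.28) and Tmem175 (-0.23). Among the higher ones were Cntnap2 (0.36) and Adam22 (0.16), which belong to Kv1 clusters on axons, Fgf12 (0.32) and the Kir3 sorting protein Snx27 (0.24). Against Abx saline mice, where 27.3% of all genes passed, 6 of 39 did: 5 were higher, Lrrc55 (0.70), a gamma subunit of BK channels, Hcn3 (0.52), Cntnap2 (0.38), Snx27 (0.28) and Dlg1 (0.27), and 1 was lower, Abcc8 (-0.39).

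Abcc8 and Kcnj11 lie side by side in the genome with 0 protein-coding genes between them (RefSeq, GRCm38.p6), as do Abcc9 and Kcnj8. Abcc8 was lower beside Kcnj11 in both saline comparisons, and in morphine mice its log2 fold change was -0.33 (SE 0.11, adjusted p 0.0664 in edgeR), not past the threshold. Abcc9 passed in none of the 3 germ-free comparisons (log2 fold change -0.15 in GF against H2O saline mice, where Kcnj8 was lower). The A-type channel partners Dpp6 and Dpp10 passed in no comparison. The remaining calls on the list were Calm3 (-0.19) after morphine in Abx mice and Hcn3 (-0.72) in Abx against H2O morphine mice, 1 of 39 in each, where 5.37% and 10.4% of all genes passed, and none passed elsewhere.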

How the data were processed

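Bulk polyadenylated RNA of 33 nucleus accumbens libraries, made into cDNA with a SMARTer kit, was deposited by the authors as 1 table of read counts by gene symbol. FastQC, STAR 2.4.0 and edgeR were used per the submitters' processing notes. For the genome build, gene annotation, counter and strandedness, the sources used here give no entry. The authors also deposited normalised signal values. Over 10852 genes found in both tables, each library's signal differed from its counts by a single factor, so only the counts were tested. The 5 tally entries (reads given to no gene, 19.3% to 35.4% of tallied reads per library, among them) were left out. Of 27 names turned into dates, 19 were restored and 8 left out. No column of another sample was used.

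The tests used edgeR 4.0.16, limma 3.58.1 and R 4.3.3: filterByExpr (minimum count 10, 14602 genes), TMM scaling, 1 fit of 6 group means over 33 libraries (27 residual degrees of freedom), two-sided quasi-likelihood tests, and Benjamini-Hochberg adjustment over all genes at 0.05. CPM values are counts per 1 M with TMM-scaled library sizes. Exon lengths and GC content came from GENCODE vM21 (GRCm38). Scripts were tested on simulated data.

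Alternatives were DESeq2 1.42.0, RLE and upper-quartile scaling, no filter, only the compared groups, a replicate block, an offset for GC content and length (splines of 5 degrees of freedom per library), neighbouring-tissue covariates, and leaving out each library. Named were the members past the threshold (at most 12 per direction, with a mean of 1 CPM or more), those with the smallest p up to 5 where fewer passed, the 12 highest levels, the highest of each subfamily, and partner genes that passed. Results on some items these rules cover are not reported here. The members, gene lists and tests were chosen with earlier results of these data known. The total count per library limits the precision of low genes such as Kcnrg. Libraries of 1 group differed beyond counting noise (chi-squared per degree of freedom 3.19 to 38.7 over 75 pairs), so none was taken as a repeat.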

Additional observations from a re-analysis of the deposited data

Results flagged for a closer look

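In 12 of the 198 groups of libraries examined (the 33 members called in any comparison, in 6 groups each), the highest or lowest library stood apart from the others by the Dixon criterion, which chance meets in about 1 in 20 groups. The values are CPM.

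H2O morphine replicate 4 stood apart in 3 members: Kcnn2 was at 15.4 against 11.2 to 11.9 in the others, Kcnmb4 at 21.8 against 11.5 to 13.0, and Kcne1l at 5.43 against 8.10 to 8.41. H2O saline replicate 4 was low for Kcnip3 (166 against 183 to 191) and for Kcnt2 (5.09 against 6.79 to 7.64). Abx saline replicate 6 was high for Kcna3 (11.8 against 7.22 to 8.29) and for the antisense RNA Kcnq1ot1 (45.6 against 4.58 to 12.4). Abx saline replicate 4 was low for Kcnj4 (214 against 261 to 288) and high for Kcnj5 (6.33 against 1.20 to 3.08). Kcnb2 was low in H2O saline replicate 8 (4.96 against 7.45 to 8.92), Kcnip1 low in H2O morphine replicate 2 (48.3 against 51.1 to 52.1), and Kcnmb4 high in GF saline replicate 1 (15.3 against 11.5 to 12.9).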

How the results depend on the processing

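Of 51 calls on single members, 9 were kept under all 8 alternatives and without each library in turn: Kcnn2 in all 3 germ-free comparisons, Kcnj11 and Kcnd3 in GF against H2O saline mice, Kcng2 and Kcnip1 in GF against Abx saline mice, and Kcne1l in both of its comparisons. Of the 51, 51 were kept with RLE scaling, 49 with DESeq2, 44 with upper-quartile scaling, 43 without the filter, 32 with only the compared groups, 23 with the GC and length correction and 18 with the neighbouring-tissue covariates. Of 998 recomputed log2 fold changes, 284 kept their direction and lost the threshold and 3 reversed, all with the neighbouring-tissue covariates: Kcnj5 (-0.37) and Kcnj16 (-0.00233) in GF against H2O and Kcnj16 (-0.0126) in GF against Abx saline mice. The number of members called moved by over 1.5 times as follows, and the cause was not tested. In GF against H2O saline mice it was 8 with the GC and length correction, and from 10 to 28 without 1 library. In GF against Abx saline mice it was 8 with that correction, 11 with only the compared groups, and 10 to 21 without 1 library. In GF against H2O morphine mice it was 3 with only the compared groups, 2 with the covariates and 2 to 7 without 1 library. In Abx against H2O morphine mice it was 2 without the filter, 2 with the replicate block, 7 with only the compared groups, 8 with the covariates and 1 to 5 without 1 library. For morphine in Abx mice it was 1 to 2 without 1 library, and for morphine in H2O mice 5 with only the compared groups and 2 with DESeq2. In all other comparisons it was 0 to 0 without 1 library.

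The replicate numbers did not pair the mice: 66 pairs of libraries with the same number had a mean correlation of -0.0007 (-0.473 to 0.462). A replicate block gave 22 calls in GF against H2O saline mice (28.4% of all genes passed), 18 against Abx (25.8%) and 7 in GF against H2O morphine mice (6.99%). It gave 2 in Abx against H2O morphine mice (8.95%), 1 for morphine in Abx mice (5.21%) and 0 elsewhere (at most 0.0616%), and it kept 44 of the 51 calls. Depth was lowest in GF mice, and members with few counts such as Kcnrg are the least precise. Kcnq1, tested without the filter, passed in no comparison.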
